A study of Mus musculus with 2 samples.

Results

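A set of 10 genes that mark the surface, the junctions and the cytoskeleton of epithelial cells was followed in a map of N4-acetylcytidine (ac4C) on mRNA of the mouse uterus. They were Muc1, Ltf, Epcam, Cdh1, Cldn3, Cldn4, Cldn7, Krt8, Krt18 and Krt19, 10 of the 21900 protein-coding genes of the RefSeq table of GRCm38. They were chosen as epithelial genes by name, with earlier results of these data known, so shares set beside all genes are descriptive only. A peak was given to a gene where its summit, the base of strongest signal, lay in the annotated span of the gene, introns included. The material was polyA RNA of whole uteri, taken from wild-type mice on gestational day 4, with no allele or treatment given in the labels. In acRIP-seq an antibody against ac4C enriches the RNA fragments that carry it, and an aliquot taken without the antibody serves as the input. Each was sequenced as 1 library, so no value has a replicate check and no test between genes or conditions was made. The number of animals behind each library was not given in the sources used here.

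The luminal epithelium lines the uterine cavity and is the first maternal tissue that the blastocyst meets, while the glandular epithelium lines the uterine glands. Epithelial cells are joined at the apical side by tight junctions, whose claudins seal the space between cells. Below these lie adherens junctions, which are built on E-cadherin and tied to actin. Keratins of simple epithelia form the intermediate filaments behind these contacts, and mucins cover the free surface. ac4C is an acetyl group on cytidine, placed by the enzyme NAT10, and is known from transfer and ribosomal RNA as well as from mRNA.

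Of the 10 genes, 9 held a peak and Epcam held none. Among all protein-coding genes 30.7% did. The 9 genes held 26 of the 21192 peaks in the list. Each of the 26 lay in 1 protein-coding gene, and 0 of them lay in a gene of another kind. The genes differed in how the peaks were laid out in genome coordinates. Exons and introns were not told apart, so the number and width of peaks need not be those of ac4C on the spliced transcript. Cldn3 and Cldn4 each held a single broad peak over much of the gene, Muc1 held a broad and a narrow one, Krt8, Krt18 and Krt19 held 3 or 4 narrow peaks each, and Cdh1 held 9 narrow peaks, 8 of them grouped in 15.2 kb.

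The peak of Cldn3 was the only one of the 14 peaks in genes of known orientation that reached past the annotated start of its gene, into the upstream sequence. Of all 16163 such peaks in protein-coding genes, 0.81% did. The 250 bases before the start of Cldn3 (RefSeq, GRCm38.p6, plus strand, chr5:134985964-134986213) are shown for that reason, with the 19 bases that lie inside the peak in capitals.
Cldn3 upstream: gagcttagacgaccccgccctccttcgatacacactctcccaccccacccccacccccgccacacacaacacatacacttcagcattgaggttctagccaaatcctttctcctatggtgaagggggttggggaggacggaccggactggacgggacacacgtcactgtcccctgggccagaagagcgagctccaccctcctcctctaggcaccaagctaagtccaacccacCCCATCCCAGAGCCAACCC
The G and C content of these 250 bases was 60.8%, against a median of 52.4% over the 32851 start windows of the table. The edge of a peak is set by the peak caller, and the 19 bases are no measure of where transcription of Cldn3 began.

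**Figure D1:**
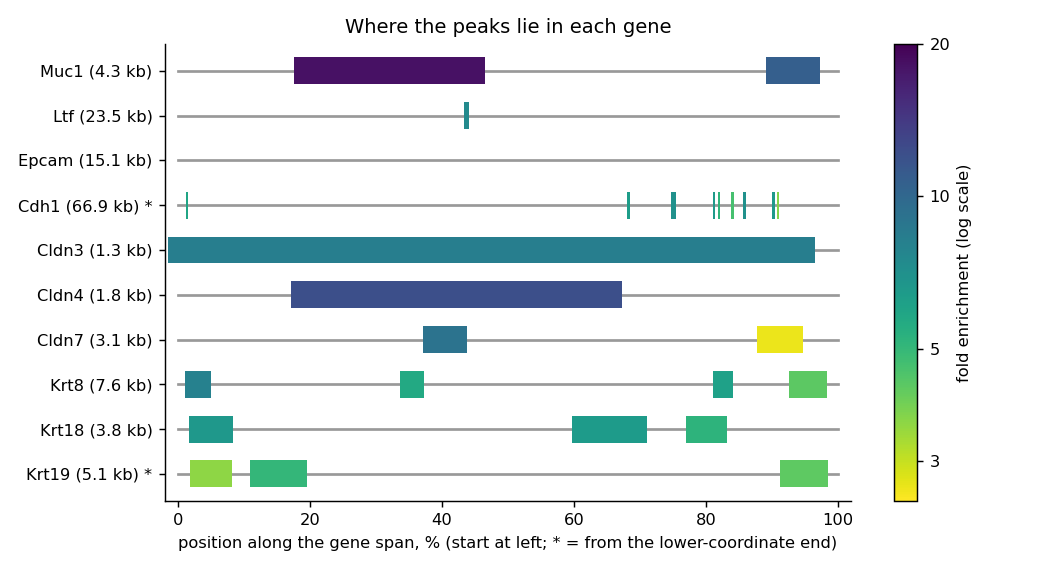
Peaks (blocks) along the span of each gene, in percent of the span, with fold enrichment as colour on a log scale and the span in kb beside the name. Genes run from start to end, except Cdh1 and Krt19 (asterisk), which run from the lower coordinate. Cldn3 is covered for 96.5% of its span, Epcam holds no peak, and 8 of the 9 summits of Cdh1 lie between 68.3% and 91.0% of the drawn span.

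Most of the 10 genes are short. All 7 members with a span under 10 kb held a peak, against 20.4% of the 7938 protein-coding genes of that size. Of the 3 longer ones, Ltf, Epcam and Cdh1, 2 held a peak, against 33.8% of genes with spans of 10 to 100 kb. Of the 7 short members, 5 held at least 2 peaks (9.37% of such genes did) and 3, all keratins, held at least 3 (4.47% did). Transcript abundance was not matched in these shares. A transcript that is scarce in the tissue gives few fragments, and in whole uterus fewer epithelial cells and less RNA per cell cannot be told apart.

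Fold enrichment is the value of the authors' peak caller at the summit, signal over its background. From this value and the p-value of the peak the whole count of fragments there was worked out, and the 95% intervals below are exact Poisson intervals of that number. They cover counting error of the immunoprecipitation only. Over the 26 peaks the fold enrichment ranged from 2.67 to 18.2 with a median of 6.37, and over all 19892 peaks in protein-coding genes the median was 5.56. The fragments ranged from 9 to 170 (median 44.5, against 22 over all), and the background from 0.70 to 19.7 fragments (median 7.0, against 2.63). The median peak of these genes thus rested on more fragments than the median peak of the list, and 20 of the 26 lay above the median background. Their median width was 262 bp, against 315 bp over all.

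**Figure D2:**
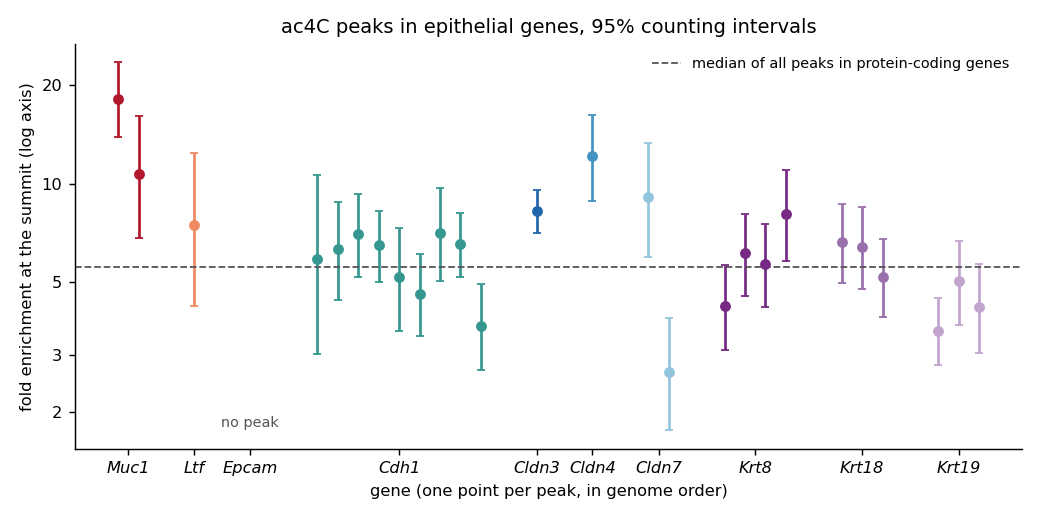
Fold enrichment at each of the 26 summits (log axis), by gene and in genome order within a gene. Bars are 95% Poisson intervals of the fragments and cover counting error only. The dashed line is the median of all peaks in protein-coding genes, 5.56, and 17 of the 26 points lie above it.

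Muc1 encodes a transmembrane mucin of the apical surface, a glycoprotein barrier that is known to decline in the mouse uterus as it becomes receptive. It had the strongest enrichment of the 10 genes. Its 2 peaks lay on chromosome 3 in a span of 4.33 kb, which runs from 89229056 to 89233381. The first, from 89229817 to 89231070, stood at 18.2 (95% interval 13.9 to 23.5) on 57 fragments over a background of 2.19. The second, from 89232908 to 89233264, stood at 10.7 (6.83 to 16.1) on 21 fragments over a background of 1.05. Both lay above most peaks of the list, since 99.2% and 92.7% of peaks in protein-coding genes had a lower fold enrichment, and their intervals overlapped. Their shapes differed. The first peak was 1254 bp wide, with its summit at 29.3% of the span, and the second was 357 bp wide with its summit at 92.6%, close to the end of the gene. Together they covered 37.2% of the span. Among the 6717 genes with a peak, 146 had a highest fold enrichment at least as great as that of Muc1. With peaks limited to 1000 bp the first peak dropped out, and Muc1 stood at 10.7.

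Ltf encodes lactotransferrin, an iron-binding protein secreted by the uterine epithelium and a classical target of oestrogen there. It held 1 peak in 23.5 kb, on chromosome 9 from 111029450 to 111029649. The fold enrichment was 7.46 (4.22 to 12.4) on 13 fragments over a background of 0.88. This was a weakly supported peak. Its width of 200 bp is the smallest in the list, shared by 1687 peaks, and it was lost when a −log10 q of at least 10 was asked for. The summit lay at 43.5% of the span, 10219 bp after the gene start, and the peak covered 0.85% of the gene.

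Epcam encodes an epithelial cell adhesion molecule that is widely used to sort epithelial cells. No summit and no base of a peak fell in its 15.1 kb on chromosome 17, from 87635979 to 87651127, and the nearest peak was 255 kb away. Backgrounds are given only for peaks, so the depth over Epcam was not known. No peak was detected in Epcam, which does not show that the transcript lacks ac4C.

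Cdh1 encodes E-cadherin, the calcium-dependent adhesion molecule of adherens junctions. With 9 peaks in 66.9 kb it held the most of the 10 genes, and 2.26% of protein-coding genes with spans of 10 to 100 kb held 9 or more. The gene lies on chromosome 8 from 106603350 to 106670247, and places within it are given from the lower coordinate. The first peak, from 106604152 to 106604356, stood alone. Its summit lay 970 bp from that end of the span and 44.7 kb before the next one. Its fold enrichment was 5.88 (3.01 to 10.6) on 9 fragments, the fewest of the 26 peaks. With a −log10 q of 5.58, this peak too was lost when at least 10 was asked for. The other 8 summits lay between 68.3% and 91.0% of the span.

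In order along Cdh1, these 8 peaks had fold enrichments of 6.32, 7.03, 6.48, 5.18, 4.61, 7.07, 6.53 and 3.68. Of the 9 peaks of the gene, 6 lay above 5.56, the median of peaks in protein-coding genes. The highest, from 106660659 to 106660909, stood at 7.07 (5.03 to 9.67) on 37 fragments over a background of 4.38. The lowest, from 106664087 to 106664290, stood at 3.68 (2.69 to 4.93) on 43 fragments over 10.9. The intervals of these 2 did not overlap. The peak with the most fragments, 77, ran from 106663610 to 106663857 at 6.53 (5.17 to 8.14). Backgrounds rose from 0.70 at the lone first peak to between 4.38 and 10.9 at the other 8. All 9 peaks were narrow, from 204 to 485 bp, and the 2 closest summits were 440 bp apart. Peaks covered 3.63% of the span, near the median of 3.03% over all genes with a peak.

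The claudins are small membrane proteins with 4 spans across the membrane. Cldn3 and Cldn4 are neighbours on chromosome 5, both without introns, with 39.3 kb and 0 other protein-coding genes between them, and 0 summits lay in that interval. Cldn7, on chromosome 11, has introns. The 3 genes held 4 peaks.

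The peak of Cldn3, from 134986195 to 134987432, was the deepest of the 26. It held 170 fragments at the summit over a background of 19.7, which gave a fold enrichment of 8.26 (7.07 to 9.59). It was 1238 bp wide and covered 96.5% of the 1263 bp span, and among the 6717 genes with a peak 2, Cldn3 among them, were covered to that extent or more. The summit lay at 82.3% of the span, 1039 bp after the start and 223 bp before the end. High fold enrichments are rare at such a background. Of the 495 peaks in protein-coding genes with a background of 16 to 25 fragments, 2, this one included, reached 8.26, and the median was 3.43. The window was not fixed in advance but set around this background, and the limit is the peak's own value, so the count is descriptive only.

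The peak of Cldn4, from 134945716 to 134946623, had a higher fold enrichment on fewer fragments. It stood at 12.1 (8.86 to 16.2) on 43 fragments over a background of 2.63, and its interval overlapped that of Cldn3. At 908 bp it covered 50.1% of the 1812 bp span, and the summit lay 610 bp after the start, at 33.7% of the span. The single peaks of these neighbours thus had their summits towards opposite ends, late in Cldn3 and early in Cldn4. Peaks covering at least 50% of the span were found in 3.08% of genes with a peak, and in 2 of the 9 members, Cldn3 and Cldn4. Coverage was not matched for span or introns, and these 2 intronless genes are the shortest members.

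The peaks of Cldn7 were narrow, and the strongest and the weakest differed more than in any of the other 5 members with several peaks. The first, from 69965930 to 69966138, stood at 9.09 (5.95 to 13.3) on 24 fragments over a background of 1.75. The second, from 69967507 to 69967721, stood at 2.67 (1.76 to 3.89) on 25 fragments over a background of 8.75, the lowest fold enrichment of the 26. The fragments were alike and the background was not. The highest was 3.41 times the lowest, and their intervals did not overlap. This contrast rests on a weakly supported second peak, whose −log10 q of 3.16 was the lowest of the 26. It was lost when a −log10 q of at least 10 or a fold enrichment of at least 3 was asked for, which left Cldn7 with 1 peak. RefSeq gives 2 starts for Cldn7, 642 bp apart, and the first summit lay 1276 bp after the earlier and 634 bp after the later one. The second summit lay at 93.0% of the span.

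Keratins form filaments as pairs of a type II and a type I chain. Krt8, of type II, and Krt18, of type I, are the founding pair of simple epithelia, and Krt19 is another type I chain of simple epithelia. Krt8 and Krt18 lie on chromosome 15, 23.9 kb apart, with 0 summits between them, and Krt19 lies on chromosome 11. The 3 genes held 10 peaks with fold enrichments from 3.55 to 8.10, on 39 to 71 fragments over backgrounds of 3.94 to 19.3. All 10 were between 230 and 442 bp wide.

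Krt8 held 4 peaks in 7.63 kb. From the start to the end of the gene, their fold enrichments were 8.10 (5.82 to 11), 5.69 (4.21 to 7.52), 6.12 (4.55 to 8.08) and 4.23 (3.10 to 5.65). The peak nearest the start, from 102003960 to 102004259, was thus the strongest and the peak nearest the end, from 101996841 to 101997271, the weakest, and the intervals of these 2 did not overlap. Their summits lay 274 bp after the start and at 95.2% of the span. The fragments were 39, 47, 48 and 44 and the backgrounds 3.94, 7.44, 7.0 and 9.63, so the lower values towards the end went with a higher background and not with fewer fragments. The pseudogene Krt8-ps on chromosome 7, within the span of Nlrp4e, also held 2 peaks. They stood at 9.87 (5.47 to 16.7) on 12 fragments and 5.32 (2.43 to 10.7) on 6, each over a background of only 0.32. Their part in the peaks of Krt8, through fragments that match both genes, was not tested.

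Krt18 held 3 peaks in 3.81 kb, 0.79 for each kb of span. In order they stood at 6.62 (4.98 to 8.65), 6.42 (4.75 to 8.49) and 5.20 (3.91 to 6.79), on 52, 47 and 52 fragments, with overlapping intervals. The first, from 102028279 to 102028529, had its summit 207 bp after the gene start. The other summits, in the peaks from 102030491 to 102030923 and from 102031151 to 102031383, lay at 62.1% and 80.8% of the span.

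Krt19 held 3 peaks in 5.12 kb and had the lowest highest peak and the lowest median of the 3 keratins. From the lower coordinate they stood at 3.55 (2.79 to 4.47), 5.03 (3.70 to 6.70) and 4.20 (3.03 to 5.69), all below the median of 5.56, with overlapping intervals of the highest and the lowest. They ran from 100140901 to 100141229, from 100141367 to 100141808 and from 100145482 to 100145848. The fragments were 71, 45 and 40, more than in most peaks of the list, over backgrounds of 19.3, 8.14 and 8.75. As in Krt8, peaks lay near both ends of the gene, with summits at 3.52%, 13.1% and 94.7% of the span from the lower coordinate.

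**Figure D3:**
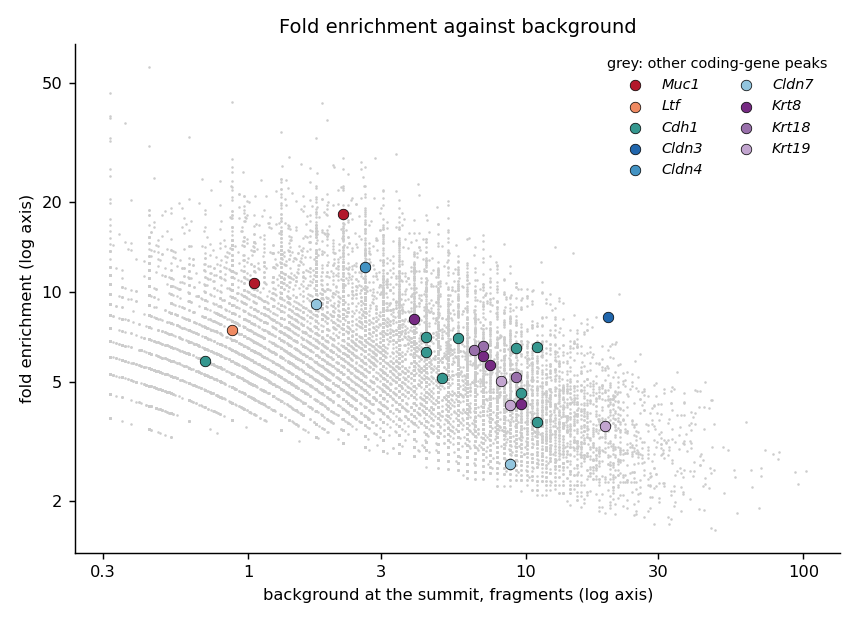
Fold enrichment against the background at the summit in fragments, both on log axes, for the 26 peaks (coloured by gene) and all other peaks in protein-coding genes (grey). The weakest fold enrichment in the list falls as the background rises. Cldn3, at 8.26 over 19.7 fragments, lies near the upper edge of the grey points at its background, and Cldn7 holds the lowest of the 26 values, 2.67.

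The weakest fold enrichment listed depended on the background, being 3.34 where it was below 0.5 fragments and 1.61 where it was at least 8. The values of different genes are therefore best read beside their backgrounds. Of the 26 peaks, 6 lay at or below the median background of 2.63 fragments, in Muc1, Ltf, Cdh1, Cldn4 and Cldn7. Their fold enrichments ran from 5.88 to 18.2 with a median of 9.91. The other 20 ran from 2.67 to 8.26 with a median of 5.90. Over all peaks in protein-coding genes the medians of these classes were 6.27 and 4.73. Keratin peaks and that of Cldn3 fell in the second class. Whether the background reflects the level of these transcripts in the input was not tested.

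Ordered by the highest fold enrichment, the genes were Muc1, Cldn4, Cldn7, Cldn3, Krt8, Ltf, Cdh1, Krt18 and Krt19. The intervals of all 8 neighbouring pairs in this order overlapped. Of the 36 pairs, 10 had intervals that did not overlap. These were Muc1 against each gene but Cldn4, Cldn4 against Krt18 and Krt19, and Cldn3 against Krt19. The place of Muc1 rests on its broad peak. With peaks of at most 1000 bp Muc1 stood at 10.7 (6.83 to 16.1), below Cldn4 at 12.1. The intervals cover counting error within 1 library and are no test between genes.

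The median over the 9 genes was 8.10, against 6.61 over all genes with a peak, and 8 of the 9 lay at or above that median, where 50% of all genes with a peak lie by definition. Krt18, at 6.62, lay just above it, and Krt19, at 5.03, below. The count was 3 of 8 members left when only peaks with a −log10 q of at least 10 were kept. It was 5 of 8 when only peaks at or above the median fold enrichment of the list were kept. Each count was made against the median of all genes left by that filter, not against 6.61. The highest fold enrichments of the 8 members left were unchanged under both filters. Shares of genes with a lower highest peak were 97.8% for Muc1, 89.3% for Cldn4, 75.3% for Cldn7, 69.3% for Cldn3 and 24.8% for Krt19.

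**Figure D4:**
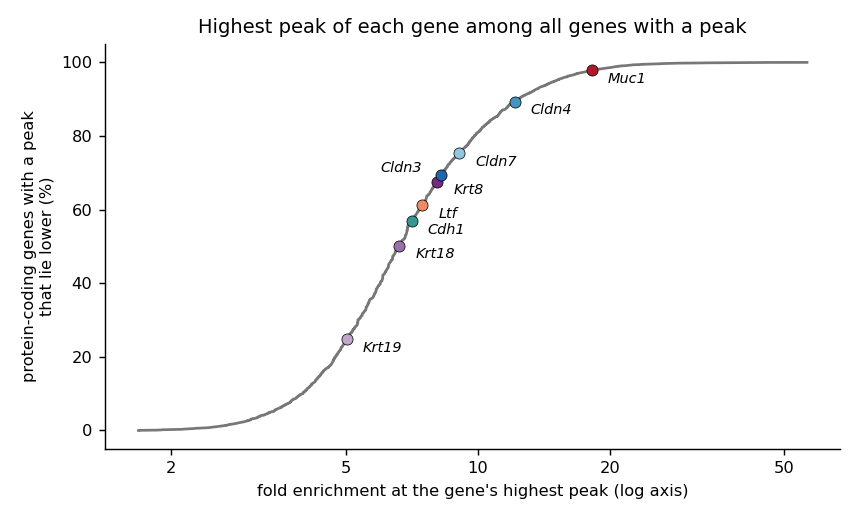
Share of the 6717 protein-coding genes with a peak that have a lower highest peak (vertical axis, %) against the fold enrichment of the highest peak (log axis). The curve is all genes and the points are the 9 genes. Muc1 stands at 97.8% and Krt19 at 24.8%, and the other 7 lie between them.

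Position was compared in the 8 genes whose orientation is in the RefSeq start table, which left out Cdh1 and Krt19. In these, 14 peaks were found. A summit in the last 10% of the span was found in 3 of the 14, in Muc1, Cldn7 and Krt8, and in the first 10% in 2, in Krt8 and Krt18. Over all oriented peaks in protein-coding genes these shares were 25.1% and 11.2%, and over those in genes with spans under 10 kb, to which all of the 8 genes but Ltf and Epcam belong, 14% and 8.6%. Widths in genome coordinates did vary with the gene, with introns not told apart. A widest peak of at least 900 bp was found in 3 of the 9 genes, Muc1, Cldn3 and Cldn4, and in 16.7% of all genes with a peak. The other 23 of the 26 peaks were below 500 bp.

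Other genes of the same structures, some shared with other cells, were read from 7 lists chosen with earlier results of these data known. The lists held 103 genes, none of them among the 10. Of these, 52 (50.5%) held a peak, against 30.7% of all protein-coding genes, and 25 of the 52 lay at or above the median highest fold enrichment of 6.61. Of the 103 genes, 33 held a peak with a −log10 q of 10 or more, against 17.6% of all protein-coding genes under the same filter.

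Among other tight junction genes 9 of 20 held a peak. The highest were Cldn23 at 12.1 (8.08 to 17.6) and Tjp3, which encodes a scaffold protein that ties claudins to actin, at 9.56 (5.61 to 15.4). Occludin (Ocln) and F11r, both membrane proteins of the junction, held none. Of all 22 claudin genes outside the 3 members, a family read by symbol after the data were seen, 4 held a peak, Cldn1, Cldn12, Cldn15 and Cldn23. Of 15 adherens junction genes 12 held a peak, among them Cdh5, which is also read as an endothelial marker below. Jup, which encodes plakoglobin, stood at 18.2 (13.2 to 24.5) and the adhesion receptor Nectin2 at 14.7 (10.3 to 20.5). Vcl, the actin linker vinculin, stood at 13.8 (9.66 to 19.1). Each lay above the highest peak of Cdh1, without overlap of intervals for Jup and Nectin2. The lower bound of Vcl, 9.66, lay just below the upper bound of Cdh1, 9.67. Fragments at these peaks were 41, 33 and 34, against 37 in Cdh1. Backgrounds were 1.31, 1.31 and 1.54, against 4.38 in Cdh1, so the higher values went with a lower background.

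Of 10 desmosome genes 6 held a peak, led by the plakins Ppl at 13.5 (8.95 to 19.8), Dsp at 11.8 (7.15 to 18.5) and Evpl at 8.52 (4.72 to 14.4). The desmosomal cadherins Dsg2 and Dsc2 held none. Of 12 other keratins 2 held a peak, Krt7 at 9.72 (6.66 to 13.7), a partner chain of simple epithelia, and Krt80 at 5.33 (2.73 to 9.64). Over the whole family of 50 other keratin genes, read by symbol after the data were seen, 3 did (Krt7, Krt10 and Krt80), against all 3 of Krt8, Krt18 and Krt19. Many keratins belong to skin and hair, and the level of their transcripts in the uterus was not measured here.

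Of 14 other mucins and surface glycoproteins 7 held a peak, led by Podxl at 10.4 (6.02 to 17.0), Muc16 at 7.23 (4.09 to 12.0) and Cd24a at 6.72 (5.27 to 8.45). The highest peak of Muc1 lay above those of Muc16 and Cd24a without overlap of the intervals, while the interval of Podxl overlapped it. Backgrounds at these peaks were 2.19 for Muc1, 0.94 for Muc16, 9.72 for Cd24a and 0.44 for Podxl. The gel-forming mucins Muc2, Muc5ac, Muc5b and Muc6 held none. Of 14 genes for products and signals of the uterine epithelium 4 held a peak, which were Ihh at 23.8 (17.1 to 32.3), the complement gene C3 at 8.37 (6.34 to 10.8), Sprr2f at 5.52 (3.43 to 8.46) and Olfm1. Lcn2, which like Ltf encodes a secreted iron-handling protein, held none.

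**Figure D5:**
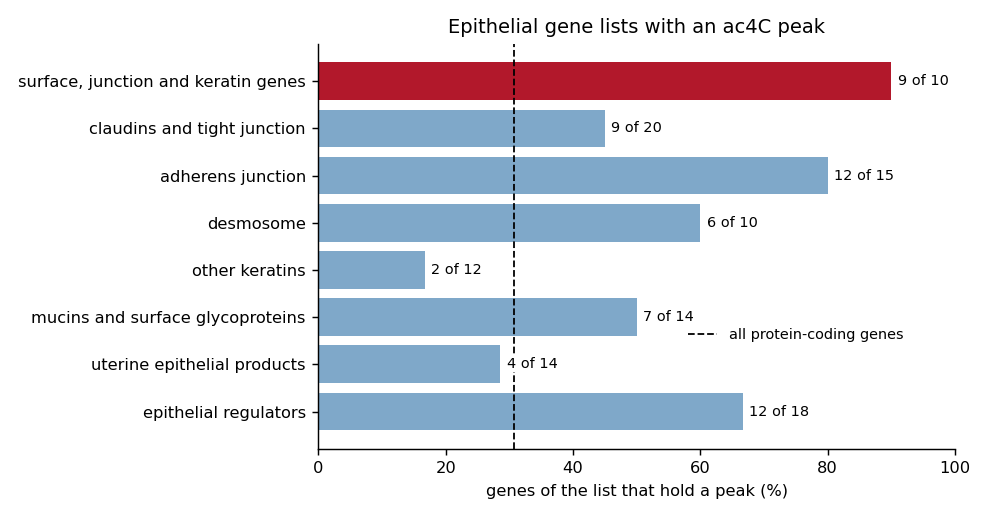
Share of genes with a peak (%), for the 10 genes and for 7 lists of related genes, with the numbers beside the bars. The dashed line is the share of all protein-coding genes, 30.7%. The 10 genes stand at 9 of 10, adherens junction genes at 12 of 15 and other keratins at 2 of 12.

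Markers of other cell types of the uterus were read as well. The 5 epithelial markers, Epcam, Cdh1, Krt8, Krt18 and Krt19, are all among the 10 genes, so they give no independent check of the tissue. A peak was held by 8 of 8 stromal, 6 of 6 smooth muscle, 4 of 5 endothelial and 2 of 6 immune markers and by 1 of 4 markers of neural and other cells, against 30.7% of all protein-coding genes. A peak is no measure of the share of a cell type. The epithelial genes were thus mapped beside transcripts that mark other cells. Some genes of the lists are shared with other cells, such as Vcl and Jup, and the cell type behind their peaks was not measured. Cdh5, of the adherens junction list, and Emcn, of the surface glycoprotein list, each held a peak and were counted again as endothelial markers.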

How the data were processed

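The deposited data were 1 peak list for 1 ac4C immunoprecipitation library, with 1 input control library, in narrowPeak layout with no header. HISAT2 2.2.1, MACS3 3.0.0a7 and the build mm10 are named per the submitters' processing notes, and the settings and filters were not given in the sources used here. The fold enrichment (a ratio at the summit) and the −log10 p and −log10 q of each peak are the authors' deposited values. The largest q was 0.0499. Strand and library totals were not given by the list. Per the labels, RNA was extracted with TRIzol and libraries were made with a strand-keeping kit.

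Summits were placed in the spans of RefSeq genes (GRCm38.p6, 49997 genes). Orientation came from the RefSeq start windows, which held 8 of the 10 genes. Whole fragments at each summit were sought that gave both the fold enrichment (pseudocount 1) and the p-value, and were found for 21192 of 21192 peaks within a relative miss of 8.58e-06. This step was tested on simulated data. Intervals are 95% exact Poisson intervals with the background taken as known. PCR copies could not be told from separate molecules. No exon positions and no sequence under the peaks entered the work, so exons, introns and untranslated regions were not told apart in the placing of peaks. The only sequences read were the RefSeq start windows.

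The 10 genes and the lists were chosen with earlier results of these data known. All 10 genes were described, and of each list the 3 genes with the highest fold enrichment, except 1 gene that is not reported here. Other genes were named after their values were seen. The alternatives were filters on q, fold enrichment and width, other ways to give a peak to a gene, and the median over the peaks of a gene. Python 3.11.15, scipy 1.17.1 and pandas 2.3.3 were used.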

Additional observations from a re-analysis of the deposited data

How the results depend on the processing

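The number of the 10 genes with a peak was 8 or 9 and the number of their peaks between 17 and 26 under the 8 alternatives for both. With a −log10 q of at least 10, 3 members reached the median highest fold enrichment (8 as reported), 33 genes of the related lists held a peak (52 as reported), the median of the widest peak per gene was 463.5 bp and the median place of the oriented summits was 51.6% of the span. With peaks limited to those of at least median fold enrichment these values were 5 members, 33 genes, 459 bp and 41.1%, and 17 peaks remained (26 as reported). The place was 43.5% with a fold enrichment of at least 3, and the widest peak 432 bp with peaks of at most 1000 bp, which removed the peak of Cldn3. By construction these filters leave fewer peaks. The median that members had to reach was taken anew over the genes left by each filter. The q filter and the filter at the median fold enrichment each left 8 members, with unchanged highest fold enrichments. No other cause was tested. The other 47 values for these 7 results stayed within a limit taken for each. Counts could differ by a set factor, and widths and places had to be equal. For the median highest fold enrichment the limit was the interval of Krt8 (5.82 to 11). Its lowest value was 6.42, with the median over the peaks of a gene (8.10 as reported). With the median over the peaks of a gene, Cldn7 stood at 5.88 instead of 9.09. No paired analysis was possible because each group held 1 library. Depth limits the absence of peaks, since a scarce transcript gives few fragments.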

Other observations

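Of 18 regulators of epithelial identity, 12 held a peak, against 30.7% of all protein-coding genes. With a −log10 q of 10 or more 8 did, against 17.6%. They included genes that maintain the epithelial state and genes that oppose it. Snai1, a repressor of Cdh1, stood at 21.3 (95% interval 15.3 to 28.8) on 40 fragments at the highest of its 3 peaks. The highest peak of the epithelial factor Elf3 stood at 15.3 (10.4 to 21.7) and that of Klf5 at 14.3 (9.42 to 20.8). The interval of Snai1 overlapped those of Elf3 and Klf5. The gland factor Foxa2 stood at 10.2 (6.34 to 15.6) at its 1 peak and the splicing regulator Esrp2 at 7.81 (5.28 to 11.2) at the highest of 4. Zeb1, another repressor of Cdh1, stood at 3.35 (2.55 to 4.31) over a background of 16.6 fragments. Of the grainyhead factors Grhl1, Grhl2 and Grhl3, none held a peak, and Ovol2, Snai2 and Spdef held none either. Foxa2, Esrp2, Zeb1 and the genes without a peak were named after their values were seen.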
